A study of Homo sapiens with 8 samples.

Results

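Treatment with GSI alone for 24 hours was compared with DMSO, the solvent control, in TAL1-FKBP12 Jurkat cells. GSI commonly stands for a gamma-secretase inhibitor, and Jurkat is an established human line of T-cell acute lymphoblastic leukaemia (T-ALL). All libraries came from cells in which TAL1, an oncogenic transcription factor of T-ALL, is fused to FKBP12, the tag bound by the degrader dTAG-13. The comparison takes the 2 libraries labelled GSI and the 2 labelled DMSO, 4 of the 8 in the series, and none of these 4 received dTAG-13. The other 4, from cells given dTAG-13 alone or dTAG-13 with GSI (named the combination here), hold a second comparison with and without GSI. All cells were grown in RPMI medium with tetracycline-free serum. The labels name neither the inhibitor nor its dose, and they do not say how the fusion was introduced, whether the cells are 1 clone, or whether replicates are separate cultures. The p-values thus reflect the spread between libraries, and that spread may be purely technical.

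Total counts were 17544319 and 21921662 reads with DMSO and 20770885 and 21048411 reads with GSI, and 15646 of the 63677 genes listed had enough reads to be tested. Replicates of DMSO correlated at 0.9931 and those of GSI at 0.9915 in log2 CPM across genes (CPM are counts scaled to the size of each library). Their counts still differed by more than sampling noise, with chi-square per degree of freedom of 4.65 and 14.1, so no library was a copy of another. Mitochondrial transcripts took 7.97% to 8.81% of the counts. The 15 T-cell and T-ALL markers summed to between 3910 and 4370 CPM in the 4 libraries. Of these, TRBC1 was listed at 0 in every library, while the other beta constant segment, TRBC2, was at 725 and 606 CPM with DMSO and 606 and 749 CPM with GSI. A listing at 0 may come from the gene annotation, which is not given, so it does not show that the transcript was absent. All 12 myeloid markers were under 1 CPM in every library.

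Gamma-secretase is a membrane protease made of several subunits, among them nicastrin, APH-1 and PEN-2. When a ligand of the Delta or Jagged family engages a NOTCH receptor, this protease releases the intracellular domain, which enters the nucleus, joins the DNA-binding protein RBPJ and a Mastermind coactivator, and switches on targets such as the HES repressors. NOTCH1 is mutated to an active form in many T-ALL, and there it drives MYC and genes of T-cell development. Blocking gamma-secretase leaves the receptor genes in place and stops this release, so the transcripts of targets are the usual readout of the drug.

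With GSI, 137 genes rose and 135 fell, and the deepest falls included NOTCH targets. DTX1, a ubiquitin ligase of the NOTCH pathway, kept 12.7% of its mean DMSO level, HES4 17.3%, HES1 22.4% and the receptor NOTCH3 25.5%. The rises were smaller: 22 of the genes that rose changed at least 2-fold, against 41 of those that fell, and 3 against 13 changed at least 4-fold. Among the largest rises with solid counts were the T cell receptor alpha constant segment TRAC, the prostaglandin receptor PTGDR2 and PLCH1, which encodes a phospholipase C. The genes that rose were 0.876% of all genes tested and those that fell 0.863%, together 1.74%, at an adjusted p under 0.05 in edgeR's quasi-likelihood test. Without adjustment, 1142 genes were higher (7.3%) and 1055 lower (6.74%) at a p under 0.05, together 14%. The median log2 fold change was 0.60 over the genes that rose and -0.67 over those that fell, beside 0.01 over all genes tested. The smallest changes called were 0.34 in either direction, and 61 of the genes that rose and 57 of those that fell changed less than 1.5-fold. All 272 had groups that did not overlap, which also held for 43.5% of all genes tested. In RNA from a whole culture, a change in every cell and a change in the share of some cells cannot be told apart.

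**Figure D1:**
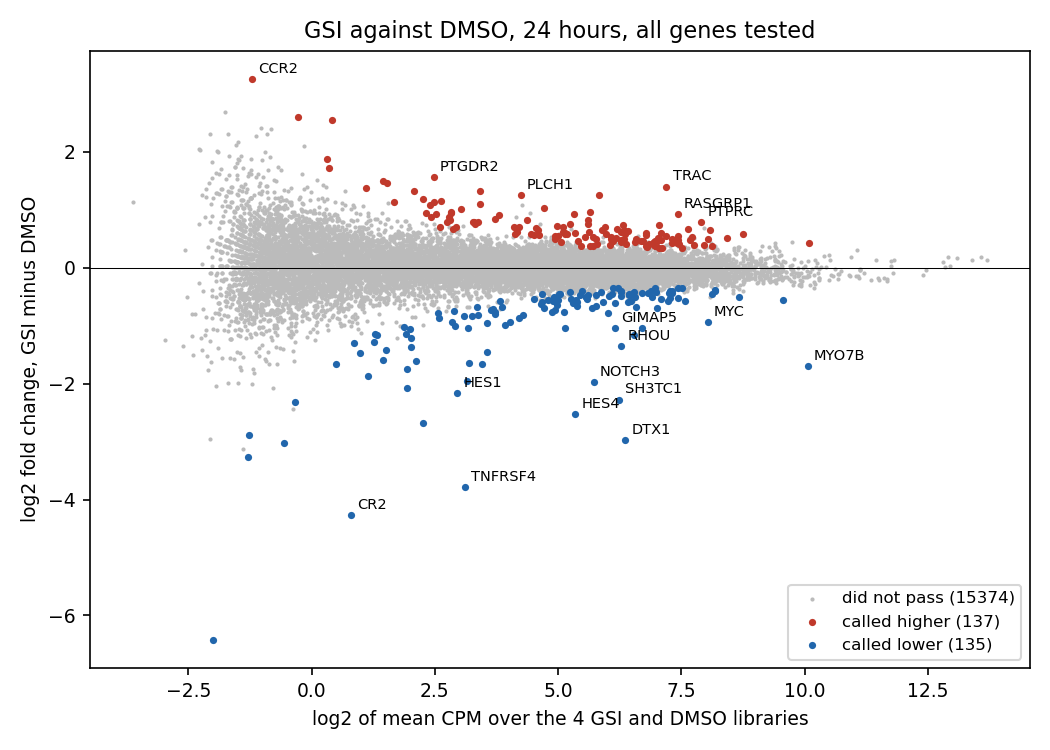
Log2 fold change of GSI against DMSO (vertical axis) against the log2 of the mean CPM over the 4 libraries (horizontal axis) for the 15646 genes tested, each dot a gene, red for the 137 that rose, blue for the 135 that fell and grey for the rest. DTX1, HES4, SH3TC1, NOTCH3 and MYO7B stand far below 0 at moderate to high levels, while the highest red dots lie at low levels.

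The calls were also counted by gene class. By GENCODE class, 124 protein-coding genes rose and 120 fell of 12134 tested (2.01%). Of 1988 long noncoding RNA genes, 7 rose and 12 fell (0.956%). Of 51 T cell receptor and immunoglobulin segments, 3 rose and 1 fell (7.84%), and of 905 pseudogenes 1 rose and 1 fell (0.221%). TRAC had no match in GENCODE by gene ID and is not among the segments counted. Differences between these shares were not tested.

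The counts of calls depended on single libraries, above all on the controls. The DMSO replicates were the closer pair, with chi-square per degree of freedom of 4.65 against 14.1 for GSI. The test uses 1 estimate of each gene's spread for all groups. Leaving out DMSO replicate 1 left 20 genes higher and 32 lower, and leaving out DMSO replicate 2 left 9 and 23. The counts were 76 and 67 when GSI replicate 1 was left out and 107 and 125 when GSI replicate 2 was. Each of these fits has 1 library in a group, whose spread is then taken from the other groups. In all 4 of these fits 9 genes rose and 22 fell. Those that rose were PTPRC, PLCH1, PTGDR2, TRAC, TRAV8-4, DPF3, RASGRP1, RBM48 and the clone-named RP4-647J21.1. Among those that fell were DTX1, HES4, HES1, NOTCH3, MYC, RHOU, IGF1R, SHQ1, CR2, TNFRSF4, SH3TC1, MYO7B, ADCYAP1, GPR157, ID1, EFEMP1, GIMAP4 and GIMAP5. No gene among the 272 changed sign in any fit.

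Among receptors, ligands and the Fringe enzymes that tune ligand choice, NOTCH3 and MFNG fell and the other 8 measured did not pass. NOTCH3, a receptor gene that is itself a target of NOTCH signalling in T-ALL, was at 87 and 81.4 CPM with DMSO and 23.7 and 19.2 CPM with GSI. Both GSI libraries lay far below both DMSO libraries (log2 fold change -1.97 with SE 0.15, adjusted p = 3.23e-05). MFNG, the glycosyltransferase Manic Fringe, was at 119.7 and 121 CPM with DMSO and 82.7 and 95.6 CPM with GSI, a smaller separation (log2 fold change -0.43 with SE 0.09, adjusted p = 0.0409). NOTCH1 was at 114 and 117 CPM with DMSO and 135 and 131 CPM with GSI: GSI libraries were the higher ones and the difference did not pass (log2 fold change 0.20 with SE 0.08, adjusted p = 0.288). NOTCH2 overlapped, at 66.4 and 73.5 CPM with DMSO and 66.9 and 50.5 CPM with GSI. The ligand JAG1 was low in all libraries, at 2.48 and 4.59 CPM with DMSO and 2.02 and 1.69 CPM with GSI (adjusted p = 0.141), and JAG2, DLL3, NOTCH4, LFNG and RFNG had log2 fold changes between -0.71 and 0.30 without passing. The median of the 10 members measured was -0.24, with 0 higher and 20% called, beside 1.74% of all genes tested. MFNG passed in only 1 of the 4 fits that leave out a library: it did not pass without any 1 DMSO library or GSI replicate 1 (adjusted p up to 0.364), nor in a fit of the 4 libraries alone.

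In the protease, none of the 5 measured genes of gamma-secretase subunits passed (median 0.17, range -0.03 to 0.26). RBPJ, the DNA-binding partner of the NOTCH intracellular domain, was at 88.1 and 92.1 CPM with DMSO and 108 and 72.6 CPM with GSI. The 2 GSI libraries lay on either side of the DMSO pair, and the log2 fold change was 0.00, SE 0.18. The coactivator MAML1 was at 91.5 and 104 CPM with DMSO and 101 and 96.8 CPM with GSI, and EP300, the acetyltransferase it recruits, at 115 and 121 CPM with DMSO and 134 and 116 CPM with GSI. Neither gene separated the groups. Of the 19 measured genes of this complex and its regulators, 2 fell and 0 rose (10.5% called, beside 1.74% of all genes tested; median 0.02): DTX1 and KAT2A, an acetyltransferase of the SAGA complex, at 144 and 145 CPM with DMSO and 100.5 and 115 CPM with GSI (log2 fold change -0.42 with SE 0.08, adjusted p = 0.024). KAT2A did not pass without any 1 DMSO library or GSI replicate 1 (up to 0.287), nor with the 4 libraries alone.

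Among the HES and HEY repressors, HES4 and HES1 fell and the other 4 measured did not pass (33.3% called, beside 1.74% of all genes tested). HES4 was at 76.3 and 62.7 CPM with DMSO and 9.34 and 14.8 CPM with GSI, so that even its higher GSI library lay far below its lower DMSO library (log2 fold change -2.53 with SE 0.18, adjusted p = 1.86e-05). HES1, the best-known of these repressors, was at 12.7 and 12.7 CPM with DMSO and 2.39 and 3.28 CPM with GSI (log2 fold change -2.16 with SE 0.18, adjusted p = 5.71e-05). HEY2 was at 6.53 and 5.27 CPM with DMSO and 3.9 and 3.71 CPM with GSI (log2 fold change -0.62 with SE 0.17, adjusted p = 0.112), also without overlap but short of the threshold. HES6, which antagonises HES1, was at 18.8 and 19.6 CPM with DMSO and 22.4 and 27.5 CPM with GSI (log2 fold change 0.38 with SE 0.12, adjusted p = 0.148), with both GSI libraries above both DMSO libraries.

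The HES1 promoter is a textbook case of paired RBPJ sites that face each other, on which NOTCH complexes can assemble as dimers, and HES4 holds the same arrangement. The RefSeq promoter sequences (build GRCh38.p14) of these 2 genes are shown because they fell together here. Each line gives the 250 bases that end just before the annotated start, 5′ to 3′ on the gene's strand, with the 2 facing sites in capitals. HES1 lies on the plus strand, at chr3:194135898-194136147, with its sites beginning 85 and 62 bases before the start. HES4 lies on the minus strand, at chr1:1000098-1000347, with its sites 77 and 54 bases before the start.
HES1: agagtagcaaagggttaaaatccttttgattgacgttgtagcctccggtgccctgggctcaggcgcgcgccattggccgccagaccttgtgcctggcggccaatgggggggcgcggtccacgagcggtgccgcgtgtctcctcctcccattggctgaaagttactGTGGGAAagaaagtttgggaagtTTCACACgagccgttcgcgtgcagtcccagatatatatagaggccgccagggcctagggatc
HES4: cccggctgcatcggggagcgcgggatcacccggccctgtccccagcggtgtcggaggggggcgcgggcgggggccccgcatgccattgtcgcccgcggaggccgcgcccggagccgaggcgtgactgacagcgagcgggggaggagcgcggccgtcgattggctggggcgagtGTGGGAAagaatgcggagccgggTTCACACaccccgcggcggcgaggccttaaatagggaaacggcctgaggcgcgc
In both, GTGGGAA is followed after 16 bases by TTCACAC. The pair, searched on both strands as GTGNGAA, 16 bases of any kind and TTCNCAC, lies in 3 of 35116 RefSeq promoter windows of this length (0.00854%), those of HES1, HES4 and ITIH4, the last of which was not among the genes tested here. This form of the search was chosen after the sequences of HES1 and HES4 had been seen. The single site GTGGGAA lies on either strand in 5.43% of the windows. Of the genes that fell 94 of 135 had a RefSeq promoter, and of those that rose 93 of 137. GTGGGAA lay in a promoter of 11.7% of these genes that fell and 10.8% of those that rose. Among the 9576 genes tested that had a promoter, the share was 6.87%. Differences between these shares of GTGGGAA were not tested. A match is a description of letters only.

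Of 20 measured genes reported as NOTCH1 targets in T-ALL, 12 fell, 0 rose and 8 did not pass, with a median of -0.72. The called share was 60%, beside 1.74% of all genes tested. DTX1 was at 138 and 154 CPM with DMSO and 18.3 and 18.9 CPM with GSI, a separation wider than for any other gene of the list with a mean above 5 CPM (log2 fold change -2.97 with SE 0.10, adjusted p = 2.06e-08). CR2, the complement receptor CD21, had 61 and 69 reads with DMSO and 4 and 3 reads with GSI. Its groups were thus 3.52 and 3.13 CPM and 0.188 and 0.145 CPM (log2 fold change -4.27 with SE 0.35, adjusted p = 4.85e-05), and after scaling to the TMM-adjusted library sizes its summed reads were 19.8 times fewer with GSI, with a counting interval of 9.36 to 50.3 that covers counting error only. PTCRA, which pairs with the beta chain in immature thymocytes, was at 3.93 and 4.27 CPM with DMSO and 1.27 and 1.45 CPM with GSI (log2 fold change -1.59 with SE 0.25, adjusted p = 0.00709). RHOU, an atypical small GTPase, was at 107 and 116 CPM with DMSO and 45.3 and 42.1 CPM with GSI (log2 fold change -1.35 with SE 0.09, adjusted p = 1.46e-05). IGF1R, the receptor of insulin-like growth factor 1, was at 122 and 133 CPM with DMSO and 61.7 and 52.9 CPM with GSI (log2 fold change -1.15 with SE 0.10, adjusted p = 8.14e-05). In all of these the GSI libraries lay well below both DMSO libraries.

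Smaller but separate changes came in SHQ1, an assembly factor of small nucleolar ribonucleoproteins, at 159 and 158 CPM with DMSO and 99.2 and 95.8 CPM with GSI (-0.70, SE 0.08, adjusted p = 0.000843), and in LZTFL1, a regulator of ciliary transport, at 56 and 54.3 CPM with DMSO and 39.3 and 38.2 CPM with GSI (-0.51, SE 0.08, adjusted p = 0.00879). IL7R, the interleukin 7 receptor, was at 55.2 and 57.5 CPM with DMSO and 44.3 and 37.4 CPM with GSI (-0.46, SE 0.10, adjusted p = 0.0411), the call closest to the threshold in this list. Targets that did not pass included the cyclin CCND3 at 471 and 439.7 CPM with DMSO and 502 and 539 CPM with GSI, the F-box protein SKP2 at 174 and 176 CPM with DMSO and 159 and 148 CPM with GSI, the pseudokinase TRIB2 at 32.3 and 31.1 CPM with DMSO and 31.1 and 28.3 CPM with GSI and the feedback inhibitor NRARP, near or under 1 CPM. CCND3 stood higher in both GSI libraries than in either DMSO library, without passing. PTCRA and LZTFL1 did not pass without any 1 DMSO library (adjusted p up to 0.137), and IL7R also not without GSI replicate 2 (up to 0.391) or with the 4 libraries alone. The list was drawn up with earlier results of these data known, and 1 gene, TNFRSF4, was taken out of it after its value was seen, because it was not known as a reported target.

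**Figure D2:**
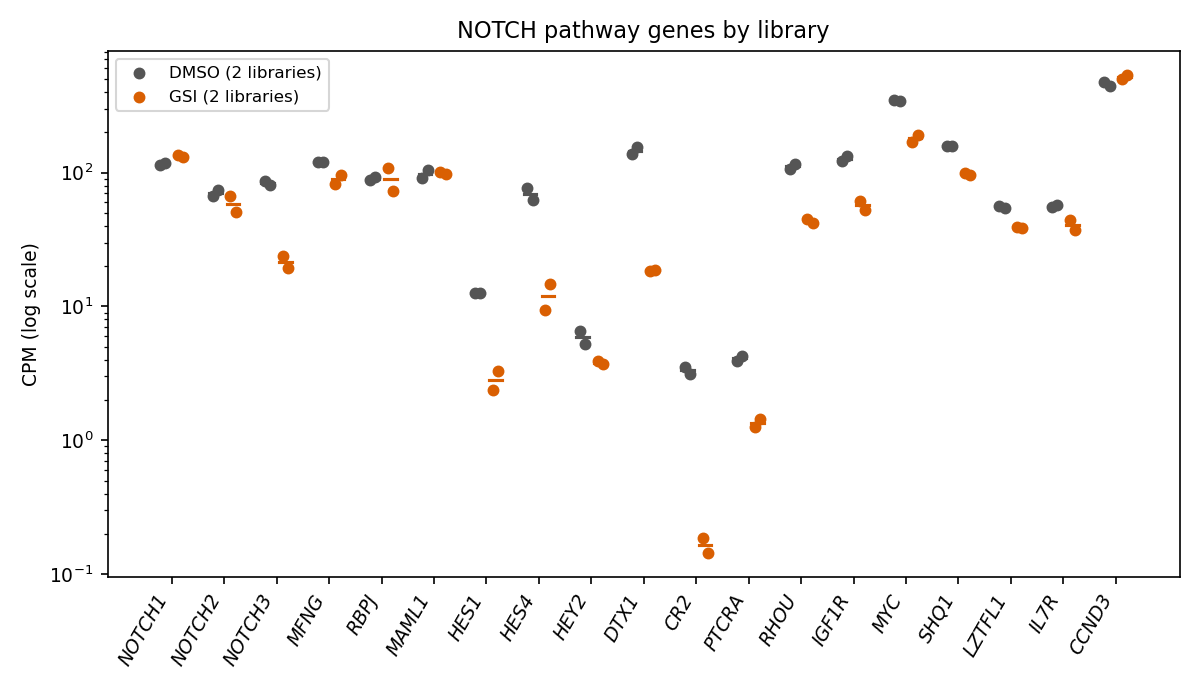
CPM on a log axis for 19 genes of the NOTCH pathway, each dot a library (grey DMSO, orange GSI, 2 of each) and each bar a group mean. NOTCH1, NOTCH2, RBPJ, MAML1 and CCND3 have grey and orange close together, while CR2, DTX1, HES4, HES1 and NOTCH3 show the widest gaps.

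Outside the pathway lists, the falls with the largest fold at 5 CPM or more were of varied function. TNFRSF4, the costimulatory receptor OX40, was at 16.6 and 15.6 CPM with DMSO and 1.36 and 0.965 CPM with GSI (log2 fold change -3.78 with SE 0.21, adjusted p = 1.75e-06), and kept 7.21% of its DMSO level. SH3TC1 was at 126 and 122 CPM with DMSO and 25.3 and 25.9 CPM with GSI (log2 fold change -2.28 with SE 0.09, adjusted p = 6.55e-08), with replicates almost equal in each group. MYO7B, a myosin of brush borders with an unusually high level in these cells, was at 1631 and 1634 CPM with DMSO and 497 and 509 CPM with GSI (log2 fold change -1.70 with SE 0.11, adjusted p = 5.8e-06). ADCYAP1, the neuropeptide PACAP, was at 15.3 and 12.5 CPM with DMSO and 4.51 and 4.34 CPM with GSI (-1.65, SE 0.16) and GPR157, an orphan G protein-coupled receptor, at 17.8 and 16.8 CPM with DMSO and 7.56 and 5.11 CPM with GSI (-1.45, SE 0.17). EFEMP1, an extracellular matrix protein of the fibulin family, was at 139 and 139 CPM with DMSO and 69.7 and 66.1 CPM with GSI (-1.03, SE 0.08), with each group's replicates close together. All of these passed whichever of the 4 libraries was left out. ACY3, an aminoacylase, was at 12.5 and 11.6 CPM with DMSO and 5.07 and 6.7 CPM with GSI (-1.04, SE 0.16) and did not pass without any 1 DMSO library (up to 0.0798).

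ID proteins, which bind E proteins such as TCF3 and keep them off DNA, moved in opposite directions. ID1 was at 13.2 and 14.9 CPM with DMSO and 3.38 and 3.91 CPM with GSI (-1.95, SE 0.18, adjusted p = 0.000103), and ID3 at 88.8 and 83.9 CPM with DMSO and 50.1 and 63.5 CPM with GSI (-0.60, SE 0.12, adjusted p = 0.0273), so that both fell. ID2 rose, from 4.68 and 4.59 CPM to 7.6 and 7.48 CPM (0.70, SE 0.15, adjusted p = 0.0305). Their E protein partners did not pass, with TCF3 at -0.14 and TCF12 at 0.12. Within the list of BMP and TGF-beta response genes, 2 of 20 rose and 3 fell (median -0.04), 25% called beside 1.74% of all genes tested. Besides the ID genes these were TGFBR2, the type II receptor, which rose (0.71, SE 0.12, adjusted p = 0.0136), and PMEPA1, a feedback inhibitor of SMAD signalling, which fell (-0.51, SE 0.08, adjusted p = 0.00967). ID2 lost its call without any 1 of the 4 libraries (up to 0.327), with DESeq2 and with the 4 libraries alone. ID3 and TGFBR2 lost it without any 1 DMSO library or GSI replicate 1 (up to 0.267), and PMEPA1 without any 1 DMSO library (up to 0.196).

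MYC, the growth regulator that NOTCH1 drives in T-ALL, was at 349 and 340.1 CPM with DMSO and 170.1 and 189.7 CPM with GSI. With GSI it kept 52.2% of its mean DMSO level (log2 fold change -0.94 with SE 0.09, adjusted p = 0.000139), and the call held without any 1 library. MXD3, a partner of MAX that opposes MYC, rose from 29.3 and 27.1 CPM to 43.6 and 52 CPM (log2 fold change 0.76 with SE 0.12, adjusted p = 0.00688). MAX itself was at 135 and 137 CPM with DMSO and 129 and 128 CPM with GSI, and MYCN and MYCL stayed near 1 to 2 CPM. Of the 12 measured members of this network, 1 rose and 1 fell (median -0.09), 16.7% called beside 1.74% of all genes tested. MXD3 did not pass without any 1 DMSO library (up to 0.186).

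Ribosome production is a known target programme of MYC. All 32 measured genes of ribosome biogenesis and RNA polymerase I had negative log2 fold changes (median -0.34, from -0.53 to 0.00), beside 7606 of 15646 over all genes tested. Of the 32, 3 fell (9.38%, beside 1.74% of all genes tested) and 29 did not pass. MYBBP1A, a nucleolar MYB-binding protein, was at 172 and 192 CPM with DMSO and 123 and 129 CPM with GSI (-0.53, SE 0.10, adjusted p = 0.0202), POLR1B, the second largest polymerase I subunit, at 71.6 and 80.9 CPM with DMSO and 54.7 and 53.9 CPM with GSI (-0.49, SE 0.09, adjusted p = 0.0173) and UTP20, a factor of the small-subunit processome, at 75.1 and 81.4 CPM with DMSO and 60.6 and 54.4 CPM with GSI (-0.45, SE 0.09, adjusted p = 0.0292). The abundant nucleolar genes NCL (-0.27, SE 0.11) and NPM1 (-0.34, SE 0.11) did not pass. Outside the list, and picked after their values were seen, WDR3 (-0.45), URB1 (-0.44) and RPF2 (-0.41), which act in assembly of the ribosomal subunits, fell as well. So did POLR3G, an RNA polymerase III subunit (-0.50), and PUS1, a pseudouridine synthase of tRNA (-0.53). These 5 lost the call without any 1 DMSO library and at least 1 of the GSI libraries (adjusted p up to 0.473), URB1 and RPF2 also with the 4 libraries alone. MYBBP1A, POLR1B and UTP20 each lost the call without any 1 DMSO library, MYBBP1A and POLR1B also without GSI replicate 1, and POLR1B and UTP20 without GSI replicate 2 (adjusted p up to 0.391), UTP20 also with the 4 libraries alone.

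In other lists of biosynthesis, nucleotide synthesis and one-carbon genes had 23 of 26 members negative (median -0.21), and 2 fell (7.69%, beside 1.74% of all genes tested): PFAS, an enzyme of purine synthesis, at 174 and 189 CPM with DMSO and 131 and 138 CPM with GSI (-0.43, SE 0.08, adjusted p = 0.0153), and CAD, which starts pyrimidine synthesis, at 315 and 342 CPM with DMSO and 245 and 252 CPM with GSI (-0.40, SE 0.08, adjusted p = 0.0258). Translation factors had 22 of 23 negative (median -0.15) with 0 called, and polyamine synthesis 6 of 9 (median -0.10) with 0 called. Over all genes tested, 7606 of 15646 were negative and the median was 0.01. Outside these lists, 2 genes of purine handling, picked after their values were seen, fell: ADA, adenosine deaminase, from 907 and 894 CPM to 549 and 678 CPM (-0.55, SE 0.11, adjusted p = 0.0236), and SLC29A1, a nucleoside transporter, from 176 and 183 CPM to 113 and 129 CPM (-0.57, SE 0.09, adjusted p = 0.00688). PFAS and ADA lost the call without any 1 DMSO library or GSI replicate 1, CAD without any 1 library, and SLC29A1 without any 1 DMSO library (up to 0.396).

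The GIMAP family, small GTPases that support lymphocyte survival and sit in 1 gene cluster, had 5 of its 7 measured genes fall, and all 7 were negative (median -0.73). The called share was 71.4%, beside 1.74% of all genes tested. GIMAP5, whose loss leads to lymphopenia in rodents, was at 97.7 and 94.3 CPM with DMSO and 44.3 and 48.7 CPM with GSI (-1.05, SE 0.09, adjusted p = 7.14e-05). GIMAP4 was at 85.1 and 78.7 CPM with DMSO and 47.4 and 48.1 CPM with GSI (-0.78, SE 0.09), GIMAP7 at 39 and 37.4 CPM with DMSO and 22.2 and 24 CPM with GSI (-0.73, SE 0.10) and GIMAP6 at 69.9 and 74 CPM with DMSO and 50.2 and 45.1 CPM with GSI (-0.59, SE 0.09). GIMAP1, at 31.1 and 30.2 CPM with DMSO and 18.9 and 21.8 CPM with GSI (-0.59, SE 0.11), overlaps GIMAP5 in the annotation, and family members can share reads. GIMAP2, at 52.1 and 51 CPM with DMSO and 40.8 and 42.5 CPM with GSI (adjusted p = 0.117), and GIMAP8, under 2 CPM, did not pass. GIMAP6 and GIMAP7 lost the call without any 1 DMSO library, and GIMAP1 also without GSI replicate 1 (up to 0.223).

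Among the T cell receptor genes, the alpha segments TRAC and TRAV8-4 rose, and the beta chain is read here from TRBC2 alone. TRAC, the constant segment of the alpha chain, was at 82.8 and 78.1 CPM with DMSO and 202 and 224 CPM with GSI, and TRAV8-4, an alpha variable segment, at 34 and 33 CPM with DMSO and 77.8 and 82.5 CPM with GSI. Both more than doubled with no overlap (TRAC 1.40, SE 0.11, adjusted p = 2.38e-05; TRAV8-4 1.26, SE 0.10, adjusted p = 2.79e-05), whereas the beta constant segment TRBC2 overlapped (0.02, SE 0.12). The CD3 chains CD3E, at 869 and 784 CPM with DMSO and 809 and 872 CPM with GSI, and CD247, at 152 and 146 CPM with DMSO and 146 and 158 CPM with GSI, overlapped too. CD3D, at 383 and 360 CPM with DMSO, was lower at 255 and 338 CPM with GSI. CD3G, at 203 and 216 CPM with DMSO, was lower at 197 and 179 CPM with GSI. The groups of CD3D and CD3G did not overlap, but neither gene passed. PTCRA, the stand-in for the alpha chain before its gene is rearranged, fell, as given above. Of the 10 measured genes of this list 2 rose and 1 fell (median -0.06), 30% called beside 1.74% of all genes tested. Variable segments resemble each other and can share reads. The beta segments TRBC1 and TRBV12-3 were listed at 0 in all 8 libraries and were not tested.

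In proximal T cell receptor signalling 4 of 29 genes rose and 0 fell (median 0.21), 13.8% called beside 1.74% of all genes tested. RASGRP1, which activates RAS on diacylglycerol, was at 116 and 120.4 CPM with DMSO and 229 and 219 CPM with GSI (log2 fold change 0.92 with SE 0.08, adjusted p = 4.85e-05). PTPRC, the phosphatase CD45, was at 176 and 174 CPM with DMSO and 321 and 283 CPM with GSI (log2 fold change 0.79 with SE 0.08, adjusted p = 0.000432). These 2 passed without any 1 library. UBASH3B, a phosphatase that dampens the receptor, was at 78.4 and 80.2 CPM with DMSO and 118 and 105 CPM with GSI (0.49, SE 0.09, adjusted p = 0.0137), and GRAP2, the adaptor GADS, at 184 and 190.5 CPM with DMSO and 237 and 253 CPM with GSI (0.39, SE 0.08, adjusted p = 0.0397). The kinases LCK (-0.17, SE 0.09) and ZAP70 (-0.15, SE 0.09) did not pass. UBASH3B lost the call without any 1 DMSO library or GSI replicate 1 and GRAP2 without any 1 library (up to 0.37), GRAP2 also with the 4 libraries alone.

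Surface antigens and adaptors of lymphocytes moved in both directions. CD2, an adhesion receptor, rose from 69.9 and 64 CPM to 87.6 and 101 CPM (0.50, SE 0.10, adjusted p = 0.023), and CD7 fell from 233 and 222 CPM to 139 and 168 CPM (-0.57, SE 0.10, adjusted p = 0.0139). CD69, an early activation antigen, was low but separate, at 4.5 and 3.45 CPM with DMSO and 7.51 and 7.48 CPM with GSI (0.93, SE 0.18, adjusted p = 0.0181). In the SLAM family of lymphocyte receptors 2 of 9 rose (22.2% called, beside 1.74% of all genes tested). They were CD84 (0.47, SE 0.10, adjusted p = 0.0364) and SH2D1A, the adaptor SAP, at 174 and 167 CPM with DMSO and 241 and 255 CPM with GSI (0.54, SE 0.08, adjusted p = 0.00403). CD5 (0.04), CD28 (-0.21) and CD1E (-0.31) did not pass. Of 22 measured T-lineage antigens 2 rose and 1 fell (median -0.04), 13.6% called. Further rises, picked after their values were seen, were in CD96, an NK and T cell receptor, at 92.8 and 85.4 CPM with DMSO and 136 and 126 CPM with GSI, RHOH, a small GTPase of blood cells, at 89.6 and 85.7 CPM with DMSO and 126 and 141 CPM with GSI, MYO1G, a myosin of lymphocytes, at 209 and 211 CPM with DMSO and 316 and 341 CPM with GSI, and IL16 at 13.3 and 12.8 CPM with DMSO and 21.3 and 21.2 CPM with GSI. Without any 1 DMSO library SH2D1A, CD96, RHOH, MYO1G and IL16 lost the call (up to 0.228), and CD2, CD7, CD84 and CD69 lost it in 3 or more of the 4 fits that leave out a library (up to 0.371), CD84 also with the 4 libraries alone.

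The enzymes of antigen receptor assembly gave 2 rises of 11 (18.2% called, beside 1.74% of all genes tested). These were DNTT, the terminal transferase of thymocytes, at 110.2 and 106 CPM with DMSO and 143 and 137 CPM with GSI (0.37, SE 0.08, adjusted p = 0.0452), and LIG4, a DNA ligase of end joining, at 56.8 and 54.3 CPM with DMSO and 84.7 and 72.9 CPM with GSI (0.51, SE 0.11, adjusted p = 0.0422). RAG1, at 25.4 and 26.6 CPM with DMSO and 24 and 18.8 CPM with GSI, and RAG2, at 35.7 and 28.9 CPM with DMSO and 36.7 and 34 CPM with GSI, did not pass. Among thymocyte transcription factors 3 of 16 rose and 0 fell (median 0.21), 18.8% called beside 1.74% of all genes tested. TOX, needed for the CD4 lineage, was at 158 and 147 CPM with DMSO and 244 and 241 CPM with GSI (0.67, SE 0.09, adjusted p = 0.0019), its relative TOX2 at 4.85 and 4.81 CPM with DMSO and 9.01 and 9.89 CPM with GSI (0.97, SE 0.17, adjusted p = 0.014), and SATB1, a chromatin organiser, at 213 and 219 CPM with DMSO and 295 and 272 CPM with GSI (0.39, SE 0.08, adjusted p = 0.0278). LEF1 was at 591 and 566 CPM with DMSO and 829.8 and 724 CPM with GSI (0.42, SE 0.11, adjusted p = 0.0809), short of the threshold, and TCF7, at 1073 and 1057 CPM with DMSO and 906 and 918 CPM with GSI (-0.22, SE 0.08), was lower in both GSI libraries without passing. TOX lost the call without DMSO replicate 2 (0.103). DNTT lost it without any 1 library, TOX2 without any 1 DMSO library or GSI replicate 2, and LIG4 and SATB1 without any 1 DMSO library or GSI replicate 1 (up to 0.455). DNTT and SATB1 also did not pass with the 4 libraries alone.

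**Figure D3:**
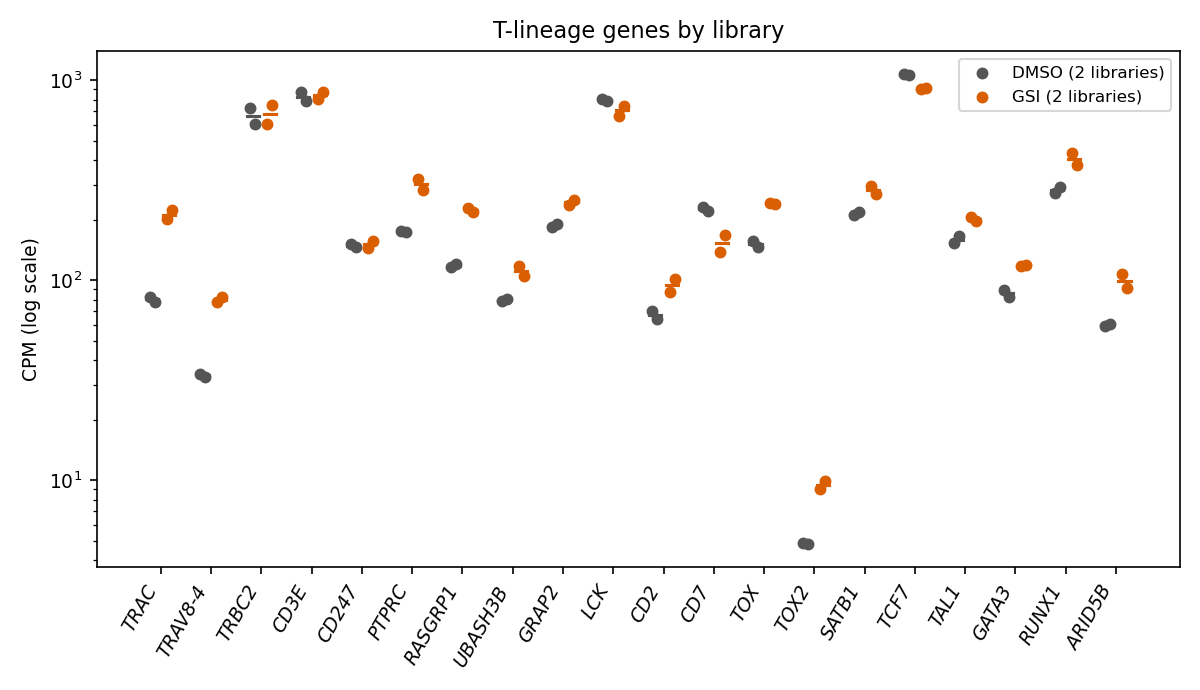
CPM on a log axis for 20 T-lineage genes, each dot a library (grey DMSO, orange GSI, 2 of each) and each bar a group mean. TRAC, TRAV8-4, PTPRC and RASGRP1 show orange well above grey, while TRBC2, CD3E and CD247 overlap and CD7 has orange below grey.

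Of 19 measured genes of the TAL1 complex and its core circuit, 6 rose and 0 fell (median 0.23), 31.6% called beside 1.74% of all genes tested. TAL1 was at 154 and 166 CPM with DMSO and 208 and 198 CPM with GSI (0.34, SE 0.08, adjusted p = 0.0486). RUNX1, a circuit member that binds with TAL1, was at 274 and 292 CPM with DMSO and 433 and 377 CPM with GSI (0.52, SE 0.10, adjusted p = 0.0166), and GATA3, another, at 89.6 and 82.3 CPM with DMSO and 118 and 119 CPM with GSI (0.47, SE 0.08, adjusted p = 0.0126). ARID5B, a reported TAL1 target, was at 59.2 and 60.4 CPM with DMSO and 107 and 91.8 CPM with GSI (0.74, SE 0.11, adjusted p = 0.00403). SSBP2, which protects the LDB1 bridge of the complex, was at 145 and 135 CPM with DMSO and 197 and 213 CPM with GSI (0.55, SE 0.08, adjusted p = 0.00503); the corepressor CBFA2T3 was at 146 and 143 CPM with DMSO and 195 and 195 CPM with GSI (0.43, SE 0.07, adjusted p = 0.0126). The groups of these 6 did not overlap, which held for all 137 genes that rose. MYB (0.05, SE 0.08), LDB1 (-0.05, SE 0.08) and LMO1 (0.14, SE 0.19) did not pass. TAL1 lost its call without any 1 of the 4 libraries (up to 0.45), with DESeq2's size factors and with the 4 libraries alone. RUNX1 lost it without any 1 DMSO library or GSI replicate 1, and GATA3, ARID5B, SSBP2 and CBFA2T3 without any 1 DMSO library (up to 0.274). The reads of the endogenous gene and of the fusion are not told apart in the TAL1 count.

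Of 18 measured genes of CDK inhibitors, D cyclins and their kinases, 2 rose and 0 fell (11.1% called, beside 1.74% of all genes tested; median 0.14). The kinase inhibitors CDKN2D, at 35.9 and 36.5 CPM with DMSO and 57.1 and 64.8 CPM with GSI (0.75, SE 0.11, adjusted p = 0.00541), and CDKN2C, at 114 and 97.4 CPM with DMSO and 134 and 145 CPM with GSI (0.40, SE 0.09, adjusted p = 0.0486), rose, and CDKN1B (0.31, SE 0.09), CDK6 (0.10, SE 0.12) and CDK4 (-0.23, SE 0.11) did not pass. None of the 35 genes of DNA replication and S phase passed (median 0.02). Of 42 genes of mitosis and the kinetochore 37 were positive (median 0.23), beside 8040 of 15646 over all genes tested. Of these 42, 1 rose (2.38%, near the 1.74% of all genes tested). It was HMMR, a spindle protein, at 95.3 and 96 CPM with DMSO and 126 and 123 CPM with GSI (0.38, SE 0.07, adjusted p = 0.0214). TOP2A was at 389 and 399.6 CPM with DMSO and 518 and 458 CPM with GSI (0.31, SE 0.09) and PLK1 at 273 and 262 CPM with DMSO and 257 and 277 CPM with GSI (0.00, SE 0.09). CDKN2C lost its call without any 1 library, with size factors and with the 4 libraries alone, CDKN2D without any 1 DMSO library, and HMMR without any 1 DMSO library or GSI replicate 1 (up to 0.519) and with the 4 libraries alone.

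Survival, stress and metabolic lists held 0 to 2 calls each. None of the 15 BCL2 family genes measured passed: BCL2 was at 23 and 27.1 CPM with DMSO and 32.3 and 34.8 CPM with GSI (0.42, SE 0.11, adjusted p = 0.0908), MCL1 at 163 and 159 CPM with DMSO and 168 and 159 CPM with GSI and the proapoptotic BCL2L11 at 39.2 and 38.5 CPM with DMSO and 32.5 and 28.9 CPM with GSI (-0.34, SE 0.09, adjusted p = 0.112). FAS, the death receptor, rose from 18.7 and 18.1 CPM to 28.4 and 26.2 CPM (0.57, SE 0.10, adjusted p = 0.0153), the only rise among 28 genes of the TNF receptor family and NF-kB, where TNFRSF4 was the only fall (7.14% called, beside 1.74% of all genes tested). IRF1 was the only called gene of 27 interferon-stimulated genes (3.7%) and fell, from 98.1 and 104 CPM to 68.3 and 77.5 CPM (-0.47, SE 0.09, adjusted p = 0.0164). XBP1, a factor of the secretory pathway, rose from 152 and 149.6 CPM to 191 and 208 CPM (0.40, SE 0.08, adjusted p = 0.0305), the only called gene of 18 in the list of endoplasmic reticulum stress (5.56%). Cholesterol synthesis and uptake had 22 of 24 genes positive (median 0.18) and heat shock proteins 13 of 14 negative (median -0.16), with 0 called in either. Over all 15646 genes tested, 8040 were positive and 7606 negative. Glycolysis (24 genes, median -0.02), lysosome and autophagy (26, 0.03), amino acid stress (20, -0.14), mitochondrially encoded genes (13, 0.13) and 12 housekeeping genes (-0.05) also had 0 called. FAS and IRF1 lost the call without any 1 DMSO library or GSI replicate 1, and XBP1 without any 1 DMSO library or GSI replicate 2 (up to 0.366).

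**Figure D4:**
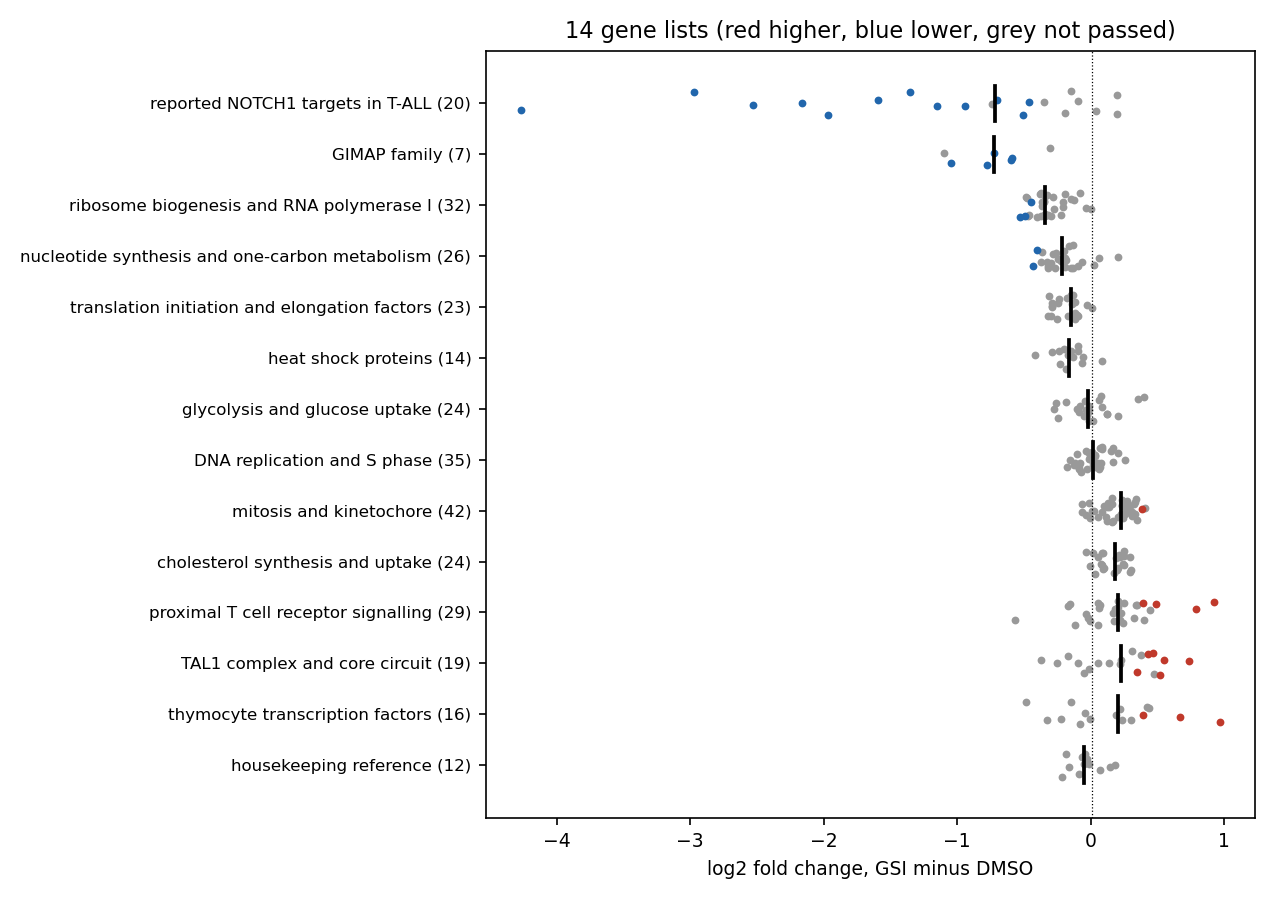
Log2 fold change of GSI against DMSO (horizontal axis) for every measured member of 14 gene lists, each dot a gene (red rose, blue fell, grey did not pass) and each black bar the list's median; the dotted line is the median of all genes tested and the number measured is in brackets. The NOTCH1 targets and the GIMAP family reach farthest to the left, while S phase, glycolysis and housekeeping genes sit around 0.

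Among the other large rises at 5 CPM or more, PTGDR2, the prostaglandin D2 receptor CRTH2, was at 2.54 and 3.04 CPM with DMSO and 7.79 and 8.83 CPM with GSI (1.56, SE 0.18, adjusted p = 0.00076), PLCH1 at 11.3 and 11.1 CPM with DMSO and 27.3 and 25.9 CPM with GSI (1.25, SE 0.11, adjusted p = 6.71e-05), and DPF3, a subunit of BAF chromatin remodelling complexes, at 15.6 and 18.8 CPM with DMSO and 35.9 and 34.8 CPM with GSI (1.03, SE 0.12, adjusted p = 0.000936). These 3 passed without any 1 library. LGALS1, a galectin, was at 6.7 and 5.49 CPM with DMSO and 13 and 17.5 CPM with GSI and C10orf107 at 32.3 and 23.2 CPM with DMSO and 48.9 and 56.5 CPM with GSI. PTP4A3, a phosphatase, was at 3.75 and 3 CPM with DMSO and 7.04 and 7.23 CPM with GSI, and all 3 of these lost the call only without DMSO replicate 2 (0.107 to 0.179). The nuclear receptor RORB (1.15), the GTPase activator ARHGAP39 (1.13), the ectonucleotidase NT5E (1.01) and the ETS factor ETV5 (1.10) rose as well, and lost the call without any 1 DMSO library, ETV5 also without GSI replicate 1 (up to 0.228).

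Some of the called genes are neighbours on a chromosome. In the order of RefSeq protein-coding genes (assembly GRCh38.p14), 15 pairs of direct neighbours were both called, and each pair went the same way. DTX1 and RASAL1, a RAS GTPase activator at 6.29 and 5.45 CPM with DMSO and 2.02 and 1.45 CPM with GSI (-1.75, SE 0.31, adjusted p = 0.0138), both fell, as did CR2 with CD55 (-0.74, SE 0.15, adjusted p = 0.0268), which encode complement-binding proteins, and LZTFL1 with SLC6A20. GATA3 rose beside CELF2 (0.48, SE 0.09, adjusted p = 0.0168), ARID5B beside RTKN2 (0.38, SE 0.09, adjusted p = 0.0477) and EVI2A (0.88, SE 0.16, adjusted p = 0.0153) beside EVI2B (0.79, SE 0.14, adjusted p = 0.0139). The remaining pairs were GIMAP1 with GIMAP5, GIMAP4 with GIMAP6, TLR5 with SUSD4, CREB3L1 with DGKZ and IFRD2 with HYAL3 (lower), and SMPD1 with APBB1, ANTXR2 with PRDM8, CD83 with JARID2 and MYO1G with CCM2 (higher). Next to HES4, on the same strand and without overlap in GENCODE, the noncoding RNA RP11-54O7.17 went from 155 and 168 reads with DMSO to 28 and 26 reads with GSI (log2 fold change -2.68). RASAL1, CD55, CELF2, RTKN2, EVI2A and EVI2B lost the call without any 1 DMSO library and at least 1 of the GSI libraries (up to 0.387), and RTKN2 also with DESeq2's size factors and with the 4 libraries alone. RP11-54O7.17 kept it in each of these fits. The pairs were looked for after the calls were known, the number of pairs that 272 calls would give was not tested, and reads shared between overlapping neighbours such as IFRD2 and HYAL3 cannot be told apart.

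The effect of GSI was measured again in cells given dTAG-13, by setting the combination against dTAG-13, a comparison that shares no library with GSI against DMSO. There 100 genes rose (0.639% of those tested) and 89 fell (0.569%), together 1.21%. Of the 272 genes called with GSI alone, 270 had the same sign (99.3%), beside 70.1% of all genes tested. Of the 137 that rose, 83 rose again (60.6%), and of the 135 that fell, 75 fell again (55.6%), with 0 called the opposite way. The 158 genes called in both are 58.1% of the calls with GSI alone and 83.6% of the calls with dTAG-13. Both comparisons come from 1 fit with a shared estimate of each gene's spread, so the calls are not independent. The medians were 0.51 and -0.55 in the presence of dTAG-13. HES1 was at 9.4 and 9.51 CPM with dTAG-13 and 1.44 and 2.16 CPM with the combination, HES4 at 78.5 and 92.2 CPM and 15.4 and 12.8 CPM, and NOTCH3 at 106 and 98.3 CPM and 31.1 and 21 CPM. TRAC was at 63 and 62.3 CPM with dTAG-13 and 148 and 184 CPM with the combination, again without overlap. The counts with dTAG-13 ranged from 14 genes higher and 29 lower without dTAG-13 replicate 2 to 118 and 146 without combination replicate 2; they were 35 and 41 without dTAG-13 replicate 1 and 44 and 52 without combination replicate 1.

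The difference between both GSI effects was tested for each gene, and 0 genes passed (0%) in edgeR, with 128 and 132 genes higher and lower at an unadjusted p under 0.05, or in DESeq2, with 41 and 40. Of the 15646 genes tested, these counts are a smaller share than the 0.05 that no difference at all would give. The test was thus stricter than its nominal rate, and 0 calls do not show that both effects are alike. For several genes the 95% interval of the log2 difference, not adjusted for the number of genes, bounds it closely. It was 0.22 (95% interval -0.05 to 0.49) for MYC, 0.01 (95% interval -0.31 to 0.32) for TRAC, -0.04 (95% interval -0.30 to 0.22) for PTPRC and 0.00 (95% interval -0.45 to 0.46) for NOTCH3. It was wider for HES1, -0.23 (95% interval -0.85 to 0.39), and TNFRSF4, 0.27 (95% interval -0.42 to 0.97). DTX1 had a difference of 0.50 (95% interval 0.19 to 0.81) and SH3TC1 one of 0.47 (95% interval 0.20 to 0.74), so the fall was the smaller one with dTAG-13 in both, with adjusted p = 1. DTX1 was at 99.5 and 105 CPM with dTAG-13 and 19.7 and 17 CPM with the combination: the levels with GSI overlapped those without dTAG-13, and the level without GSI was lower than with DMSO. The 2 genes whose sign differed were LRRC46, at 3 and 3.81 CPM with DMSO and 6.66 and 6.56 CPM with GSI, against 4.79 and 5.36 CPM with dTAG-13 and 4.84 and 4.94 CPM with the combination, and MSLNL, under 1 CPM in all libraries. ID2, singled out after its difference was seen, did not pass with dTAG-13 present, at 7.19 and 7.92 CPM and 8.15 and 7.62 CPM, a log2 difference of -0.64 (95% interval -1.08 to -0.21).

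**Figure D5:**
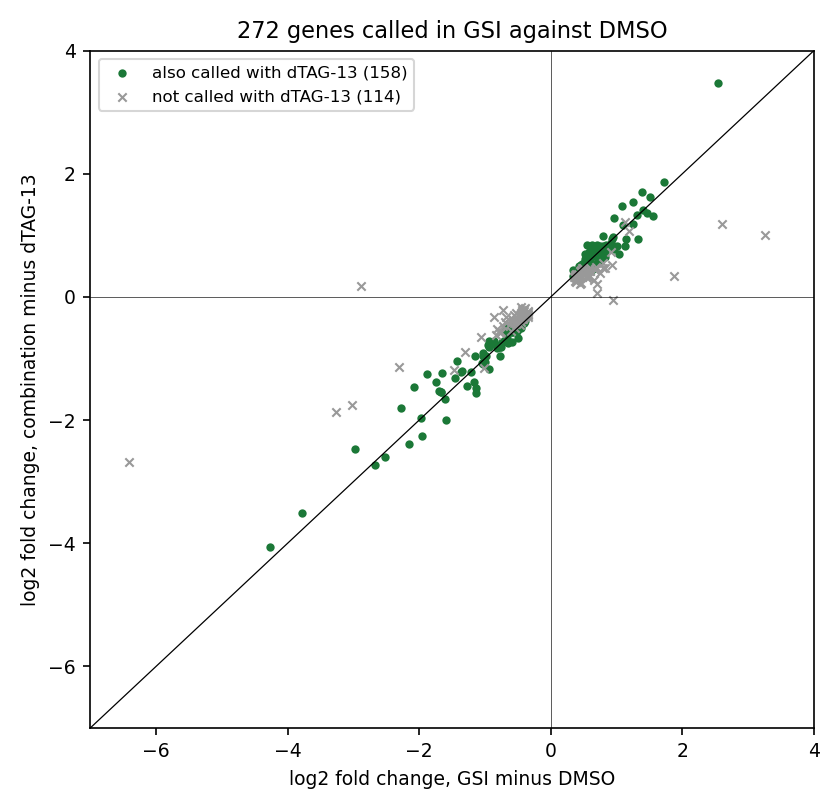
Log2 fold change of the combination against dTAG-13 (vertical axis) against that of GSI against DMSO (horizontal axis) for the 272 genes called with GSI alone, green for the 158 also called with dTAG-13 and grey crosses for the other 114; the diagonal marks equal values. All but 2 of the genes lie in the lower left and upper right quadrants.

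In the authors' deposited table of GSI against DMSO, 113 genes were higher and 130 lower at their adjusted p under 0.05, of 12688 genes with a value. Of those, 98 and 106 were also called here, which is 86.7% and 81.5% of the deposited calls and 71.5% and 78.5% of the edgeR calls. The authors' deposited table gives DTX1 a log2 fold change of -2.98, SE 0.13 and HES4 one of -2.54, SE 0.19.

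Among markers of other cell types in this single line, 1 of 4 measured B-cell genes, CD79A, was called (25%, beside 1.74% of all genes tested). All 4 were positive (median 0.64). The NK and cytotoxic, erythroid and megakaryocytic, and epithelial and stromal markers gave 0 calls. Summed over 10 B-cell markers, the level was 244 to 278 CPM with DMSO and 342 to 480 CPM with GSI. Nearly all of that was IGLL1, the surrogate light chain of the pre-B receptor, at 203 and 181 CPM with DMSO and 248 and 367 CPM with GSI (0.68, SE 0.17, adjusted p = 0.069), and CD79A, its signalling partner, at 70.7 and 60.3 CPM with DMSO and 88.6 and 109 CPM with GSI (0.59, SE 0.11, adjusted p = 0.0157). The B-cell factor PAX5 was at 0 in all 4 libraries, and 6 of the 10 markers were under 1 CPM in every library. The 10 NK and cytotoxic markers summed to 31.5 to 37.1 CPM with DMSO and 39.8 to 43.4 CPM with GSI, with 6 of 10 under 1 CPM. The 17 erythroid and megakaryocytic markers summed to 456 to 493 CPM and 354 to 420 CPM, mostly TFRC, the transferrin receptor of dividing cells (-0.30, SE 0.10, adjusted p = 0.175), with 12 of 17 under 1 CPM. The 12 epithelial and stromal markers summed to 2.5 to 4.85 CPM and 2.89 to 3.38 CPM. CD79A lost its call without any 1 DMSO library or GSI replicate 2 (up to 0.322). The part of these markers in the other changes was not tested.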

How the data were processed

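Paired-end libraries that keep the strand were sequenced from RNA of TAL1-FKBP12 Jurkat cells. The submitters' processing notes list hg19 as the genome, with STAR (2.5.2a), featureCounts and DESeq2 (1.12.4) as tools. The sources used here give neither the gene annotation nor the strand setting of the counting. The authors deposited a table of whole-number counts per gene, and tables against DMSO whose mean normalized signal, log2 fold changes, scores (fold change divided by its error) and p-values are theirs.

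Counts were fitted with edgeR 4.0.16 in R 4.3.3 (limma 3.58.1 beneath it). Genes kept by filterByExpr numbered 15646 and held at least 99.891% of each library's counts. After TMM scaling, 1 robust quasi-likelihood model of 4 groups in all 8 libraries, with 4 residual degrees of freedom and a biological coefficient of variation of 0.0804, gave 2-sided F-tests, with Benjamini-Hochberg adjustment across every gene tested and a threshold of 0.05. The contrasts were GSI against DMSO, the combination against dTAG-13, and their difference. CPM are relative to the library, so a change in RNA per cell does not show. Total counts per library, 17544319 to 21921662 in the 4 compared, and 2 libraries a group limit the precision. In a single simulated data set of 15374 genes, 66 or 67 genes were changed at each fold and the libraries were drawn independently. The test of GSI against DMSO recovered 50.7% of 1.5-fold changes, 76.1% of 2-fold changes and 95.5% of 4-fold changes. These shares are approximate, and libraries with shared deviations were not simulated. Each gene was simulated with the same spread in all groups, whereas the GSI replicates differed more than the DMSO replicates (chi-square per degree of freedom 14.1 and 4.65).

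The genes, lists and tests were chosen with earlier results of these data known, and no list was tested as a set. Named genes are the 15 highest and 15 lowest calls with a mean of at least 5 CPM, separate groups and no clone name, up to 4 calls in each direction and 3 other members of each list, and fixed genes; the remaining members of the NOTCH, GIMAP and TAL1 lists, and genes named outside this rule, were picked after their values were seen. Alternatives were DESeq2's size factors, the Wald test of DESeq2 1.42.0, no filter, the 4 compared libraries alone, a replicate block and leaving out each library.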

Additional observations from a re-analysis of the deposited data

How the results depend on the processing

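For GSI against DMSO (137 higher, 135 lower), DESeq2's size factors gave 124 and 141, the DESeq2 Wald test 158 and 175, and the 4 libraries alone 123 and 123. Without the filter on low counts 303 and 357 genes passed. Leaving out 1 library gave 9 to 107 higher and 23 to 125 lower. For the combination against dTAG-13 (100 and 89), no filter gave 264 and 299, the 4 libraries alone 47 and 49, and leaving out 1 library 14 to 118 and 29 to 146. The difference of the GSI effect stayed at 0 in all settings except without DMSO replicate 1, with 0 higher and 1 lower (AC079949.1, -2.53, SE 0.20, adjusted p = 0.00154). No value changed sign among the 272 calls. Of 73 named calls, 71 held with size factors, 72 with DESeq2, 73 without the filter and 61 with the 4 libraries alone, but 27 without DMSO replicate 1, 23 without DMSO replicate 2, 48 without GSI replicate 1 and 59 without GSI replicate 2. Same-numbered libraries of DMSO and GSI deviated from their group means with a correlation of -0.108, and those of dTAG-13 and the combination with one of 0.138 (-0.108 to 0.214 over all 6 pairs of groups). With 2 libraries a group and no shared source in the labels, the numbers were not taken as pairs. A replicate block gave 264 higher and 295 lower for GSI against DMSO and 241 and 235 for the combination against dTAG-13. With the DMSO numbers crossed, a pairing added after seeing the data, the block gave 716 and 865, and 599 and 835.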

Other observations

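Several called genes had few reads and fell outside the rule for named genes, so they are given as counts and were picked after their values were seen. CCR2, a chemokine receptor of monocytes and memory T cells, had 2 and 1 reads with DMSO and 16 and 17 reads with GSI. PHEX, an endopeptidase of mineral metabolism, had 5 and 4 reads with DMSO and 33 and 27 reads with GSI, and MIR223, the gene of a microRNA hairpin of myeloid cells, 8 and 7 reads with DMSO and 47 and 48 reads with GSI. For CCR2, with 3 reads in all with DMSO, the ratio of DMSO to GSI, scaled to library size, was 0.0972 with a counting interval of 0.0191 to 0.31. In the other direction, KANK4 had 25 and 22 reads with DMSO and 4 and 2 reads with GSI, GPR17 22 and 30 reads with DMSO and 4 and 7 reads with GSI and SLC6A20, an amino acid transporter, 15 and 14 reads with DMSO and 1 and 2 reads with GSI, the last with a scaled ratio of DMSO to GSI of 10.3 and a counting interval of 3.2 to 53. The lowest dot of the plot of level and change is CTA-398F10.2, annotated as a long noncoding RNA, which had 8 and 12 reads with DMSO and 0 and 0 reads with GSI. IRF8, an interferon regulatory factor of myeloid and B cells, was at 2.37 and 2.77 CPM with DMSO and 0.986 and 1.11 CPM with GSI (-1.30, SE 0.28, adjusted p = 0.0406). IRF8 did not pass in the DESeq2 Wald test (adjusted p = 0.0535), and CTA-398F10.2 was not called there. For CCR2 and SLC6A20 DESeq2 gave no adjusted p. CCR2, SLC6A20, CTA-398F10.2 and IRF8 lost the call without any 1 of the 4 libraries, CTA-398F10.2 also with the 4 libraries alone. The others named here lost it without any 1 DMSO library, KANK4 also without GSI replicate 2 and GPR17 without any 1 library (up to 0.313).

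The RGPD genes, near-identical copies that encode proteins related to the nucleoporin RANBP2, fell in 3 cases: RGPD1 at 4.27 and 4.04 CPM with DMSO and 1.5 and 1.59 CPM with GSI, RGPD2 at 5.78 and 5.9 CPM with DMSO and 2.77 and 1.74 CPM with GSI and RGPD3 at 2.08 and 2.18 CPM with DMSO and 0.422 and 0.916 CPM with GSI. Reads can be shared among these copies, so the 3 calls are not separate measurements. All 3 lost the call without DMSO replicate 1 or DMSO replicate 2, and RGPD3 also without GSI replicate 1 (up to 0.281). Among further falls, picked after their values were seen and from no list, were PPARGC1B and PPRC1, which encode related transcriptional coactivators, at 22.9 and 26.8 CPM with DMSO and 15.5 and 12.8 CPM with GSI (-0.82, SE 0.13, adjusted p = 0.00661) and at 174 and 176 CPM with DMSO and 132 and 135 CPM with GSI (-0.40, SE 0.08, adjusted p = 0.0258), CLUH, which binds transcripts of mitochondrial proteins (-0.55, SE 0.09, adjusted p = 0.0126), and TRAP1, a mitochondrial chaperone (-0.51, SE 0.10, adjusted p = 0.0196). The 13 mitochondrially encoded transcripts gave 0 calls. PPARGC1B lost the call without DMSO replicate 2, and the other 3 without any 1 DMSO library or GSI replicate 1, PPRC1 also without GSI replicate 2 (up to 0.316).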
